A study of Mus musculus with 31 samples.

Results

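Nfkbia and Tnfaip3 are a pair of genes that NF-kB switches on and whose products then hold NF-kB back. Peaks of NIPBL and Rad21 were taken from a window around each gene, chr12:56550001-56640000 for Nfkbia and chr10:18660001-18800000 for Tnfaip3 with its flanking enhancers (mm9). All peaks of all 26 deposited lists that overlap a window were counted as members. There were 2575 such peaks of 17061930 in all, 1148 in the Nfkbia window and 1427 in the Tnfaip3 window. The windows were given as coordinates. No mm9 annotation was used here, so peaks were placed by coordinate and not as promoter, exon or intron.

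The series used chromatin immunoprecipitation followed by sequencing (ChIP-seq) in mouse B cells to study cohesin and loop extrusion in immunoglobulin class switching. NIPBL was mapped in 3 libraries of primary mature splenic B cells that had received anti-CD40 with IL-4 for 48 h, and in 3 of unstimulated ones. It was also mapped in CH12F3, a mouse lymphoma line of B cell origin, in 2 libraries of cells that had received TGF-β along with anti-CD40 and IL-4 for 24 h and in 2 of unstimulated cells. Rad21 was mapped in stimulated (n = 3) and unstimulated (n = 3) splenic B cells, in stimulated cells titled i3CBEs (n = 3), and in stimulated (n = 4) and unstimulated (n = 3) CH12F3 cells, with the same agents and times. All cells are labelled as AID-deficient (they lack the enzyme that starts class switching) and C57BL/6. The line is titled CH12F3NCdel; neither this name nor i3CBEs is expanded in the labels, which give CH12F3 as the source of both. Because spleen and line received different agents for different times, cell type and treatment cannot be told apart in a stimulated comparison of these cells. Whether replicates came from separate animals or cultures is not in the labels. The p-values therefore rest on the variation among these libraries, some of which may be technical. The 5 input samples were not analysed here.

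NF-kB transcription factors are kept in the cytoplasm by inhibitors of the IκB family. Nfkbia encodes IκBα, the inhibitor that is degraded when receptors such as CD40 are engaged and is then made anew from its own NF-kB-driven gene. Tnfaip3 encodes A20, a ubiquitin-editing enzyme that shuts off signalling upstream of the IκB kinase. NIPBL loads the cohesin ring onto chromatin and is often found at active promoters and enhancers, and Rad21 is the subunit that closes the ring. Cohesin gathers at sites bound by CTCF, where extruding loops halt.

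The RefSeq promoter of each gene (GRCm38.p6, from 250 bases before to 50 bases after the start of transcription) is shown with its matches to an NF-kB motif. The motif searched was an NF-kB consensus of 3 G, any 3 bases, 2 T and 2 C, on both strands, and its matches are in capitals. The promoters lie at chr12:55492598-55492897 and chr10:19015361-19015660, both on the minus strand of GRCm38.p6, a different build from that of the peaks, so no peak was placed on them.
Nfkbia: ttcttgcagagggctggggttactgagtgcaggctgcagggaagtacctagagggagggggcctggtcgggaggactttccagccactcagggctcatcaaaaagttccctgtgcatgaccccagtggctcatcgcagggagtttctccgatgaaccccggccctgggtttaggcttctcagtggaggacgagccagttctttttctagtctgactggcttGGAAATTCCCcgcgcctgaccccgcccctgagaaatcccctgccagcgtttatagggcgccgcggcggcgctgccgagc
Tnfaip3: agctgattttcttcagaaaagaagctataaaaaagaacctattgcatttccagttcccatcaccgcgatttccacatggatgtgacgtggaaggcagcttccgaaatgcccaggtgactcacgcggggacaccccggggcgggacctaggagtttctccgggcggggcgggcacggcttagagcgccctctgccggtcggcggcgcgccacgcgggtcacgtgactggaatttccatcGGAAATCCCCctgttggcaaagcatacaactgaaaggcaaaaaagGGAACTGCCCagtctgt
Nfkbia has 1 match, which starts at -29 relative to the start of transcription. Tnfaip3 has 2 matches, which start at -12 and at 33. RefSeq lists a further Tnfaip3 start, not shown, whose promoter has 1 match at -90. The motif occurs in 1825 of 32851 RefSeq promoters of this length (5.56%), and a match is a description of the letters, not a shown binding site.

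The NIPBL lists held 890499 to 1332862 peaks and the Rad21 lists 42659 to 1236385. Read counts are not part of the lists, so depth is unknown. To set the lists on one scale, the 20000 strongest peaks of each (by the authors' -log10 p) were used, called top peaks here. They covered 5.13 to 17.0 Mb of the genome per library. Levels are given as the percent of bases covered by top peaks. In these bulk libraries, fewer bound cells and less binding per cell cannot be told apart. The lists hold no expression values for a check of cell type markers. Stimulated splenic Rad21 replicate 2 stood apart, since 0.0103% of its peaks lay on chromosome Y, against 0.0229% to 0.0434% in the other 5 splenic Rad21 lists. In the Rad21 lists of i3CBEs and CH12F3 the share was 0.00374% or less. Bins whose call turned on this library are given with and without it. Some uncalled differences, in percentage points, changed sign without it. Rad21 stimulation in spleen went from 0.423 to -1.61 at chr10:18710001 and from 0.06 to -0.67 at chr10:18720001. At chr12:56590001 it went from 1.24 to -0.61. Stimulated Rad21 of spleen minus CH12F3 went from 1.36 to -0.675 at chr10:18710001 and from 1.34 to -0.763 at chr12:56600001. The stimulation effect in spleen minus that in CH12F3 went from 1.4 to -0.576 at chr12:56610001.

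Of the 2575 peaks, 162 were top peaks, 84 in the Nfkbia window and 78 in the Tnfaip3 window. NIPBL held 25 of the 84 and 15 of the 78. A place where top peaks of at least 3 libraries of an antibody overlapped was taken as a site, and its coordinates are the medians of the peaks' starts and ends. Fold enrichments and ranks are the authors' values within each list. Those of different lists are given side by side as a description, and no test compared them.

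In the Nfkbia window NIPBL had 1 broad site at chr12:56592042-56594056. It was a top peak in 8 of 10 NIPBL libraries, all 6 of spleen and replicate 1 of both CH12F3 groups. Those peaks were 1495 to 2955 bp wide, with fold enrichments of 7.85 to 19.37. In replicate 2 of stimulated and unstimulated CH12F3 the peak lay outside the top, at ranks 22535 and 23326, with fold enrichments of 7.37 and 8.93. Thus every NIPBL list had a peak here, and the lists without a top peak were just outside the limit. A smaller NIPBL site at chr12:56590095-56590405 was a top peak in 5 of 10 libraries, in 2 of 3 stimulated and 2 of 3 unstimulated splenic libraries, in 0 of 2 stimulated and 1 of 2 unstimulated CH12F3 libraries.

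Rad21 was placed differently. No Rad21 library of 16 had a top peak on the broad NIPBL site, although all 16 had a weaker deposited peak there, with fold enrichments of 3.82 to 5.54. Instead, Rad21 had 4 sites, all at higher coordinates than the NIPBL site. They were at chr12:56595946-56596506, chr12:56599917-56600523, chr12:56606844-56607284 and chr12:56618998-56619296, with midpoints at 3.21, 7.2, 14.05 and 26.11 kb from that of the NIPBL site. The first 3 were top peaks in all 16 Rad21 libraries. At chr12:56599917-56600523 the Rad21 peak ranked between 121 and 5247 in its list, with fold enrichments of 10.45 to 35.79. NIPBL had a top peak at this site in 1 of 10 libraries, at chr12:56595946-56596506 in 1 and at chr12:56606844-56607284 in 0. At chr12:56618998-56619296 the count was also 1 of 10. A NIPBL peak of any rank lay at these sites in 10, 8, 1 and 10 of the 10 libraries, in the same order. All 59 Rad21 top peaks of the window lay in these 4 sites, whereas 12 of the 25 NIPBL top peaks lay in 11 places found in fewer than 3 libraries.

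**Figure D1:**
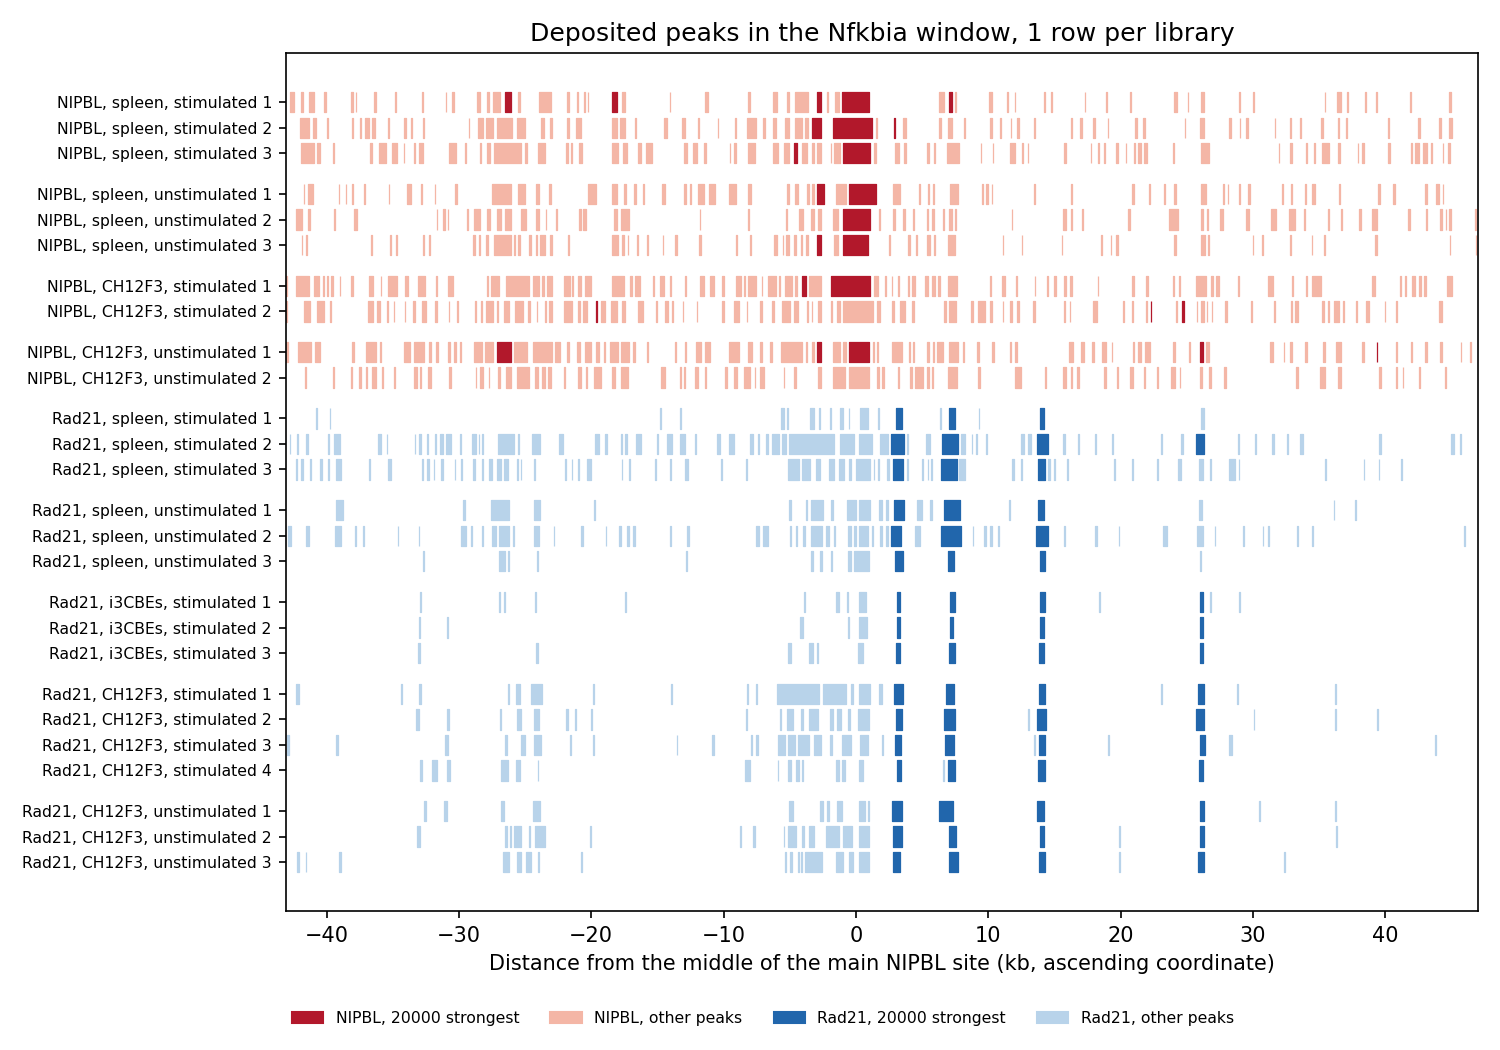
Deposited peaks in the Nfkbia window, 1 row per library, against the distance in kb from the midpoint of the broad NIPBL site. Dark bars are top peaks and pale bars all other peaks (red for NIPBL, blue for Rad21). NIPBL top peaks gather at 0 kb, and Rad21 top peaks stand in columns at 3.21, 7.2, 14.05 and 26.11 kb, the last of which is pale in 5 of 6 splenic rows.

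The Rad21 site farthest from the NIPBL site, chr12:56618998-56619296, varied with cell type. It was a top peak in 1 of 3 stimulated and 0 of 3 unstimulated splenic libraries, against 3 of 3 i3CBEs, 4 of 4 stimulated and 3 of 3 unstimulated CH12F3 libraries. The splenic library with the top peak was stimulated replicate 2, the library that stood apart on chromosome Y, and without it 0 of 5 splenic libraries had one. The other splenic lists had a weaker peak here. Its fold enrichments were 4.16 and 4.74 in stimulated replicates 1 and 3, and 3.52, 4.16 and 3.32 in unstimulated replicates 1, 2 and 3. The i3CBEs and CH12F3 peaks had 7.2 to 21.04 in their own lists.

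In the Tnfaip3 window the main NIPBL site was also a Rad21 site. It lay at chr10:18734453-18735942 and was a top peak in 9 of 10 NIPBL libraries, all but unstimulated CH12F3 replicate 2, whose peak ranked 70157. The 9 peaks had fold enrichments of 7.82 to 30.45 and ranks of 384 to 12928. The Rad21 site at chr10:18734553-18735878 overlapped it, with midpoints 0.2 kb apart. It was a top peak in 13 of 16 Rad21 libraries, which were 3 of 3 stimulated and 3 of 3 unstimulated splenic, 2 of 3 i3CBEs, 2 of 4 stimulated and 3 of 3 unstimulated CH12F3 libraries. The peaks of the remaining 3 libraries ranked 20976, 21382 and 26522, close to the limit. Rad21 peaks here were 1499 to 4904 bp wide in stimulated and 1076 to 2588 bp in unstimulated spleen, 348 to 660 bp in i3CBEs, and 430 to 2625 bp in stimulated and 496 to 1866 bp in unstimulated CH12F3.

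A further 3 Rad21 sites lay at lower coordinates, at chr10:18673414-18673973, chr10:18679562-18680055 and chr10:18719193-18719784. Their midpoints were at -61.42, -55.33 and -15.64 kb from the NIPBL site. NIPBL had a top peak at none of them in its 10 libraries, and a peak of any rank in 3, 6 and 9 of the 10, in the same order. The strongest Rad21 peak of the window was at chr10:18673414-18673973, the site farthest from the NIPBL site, in all 16 Rad21 libraries. This site and the one at chr10:18719193-18719784 were top peaks in all 16, with fold enrichments of 8.21 to 22.46 and of 5.76 to 15.19. The site at chr10:18679562-18680055 was a top peak in 13 of 16. It was among the top in 3 of 3 stimulated and 0 of 3 unstimulated splenic libraries, and in all 3 i3CBEs, all 4 stimulated and all 3 unstimulated CH12F3 libraries. Its ranks in stimulated spleen were 19192, 16908 and 13982, and those in unstimulated spleen were 35928, 132405 and 65227, in lists of very different length. The stimulated ranks lie near the limit, so this difference in membership was not tested and rests on where the limit is drawn.

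**Figure D2:**
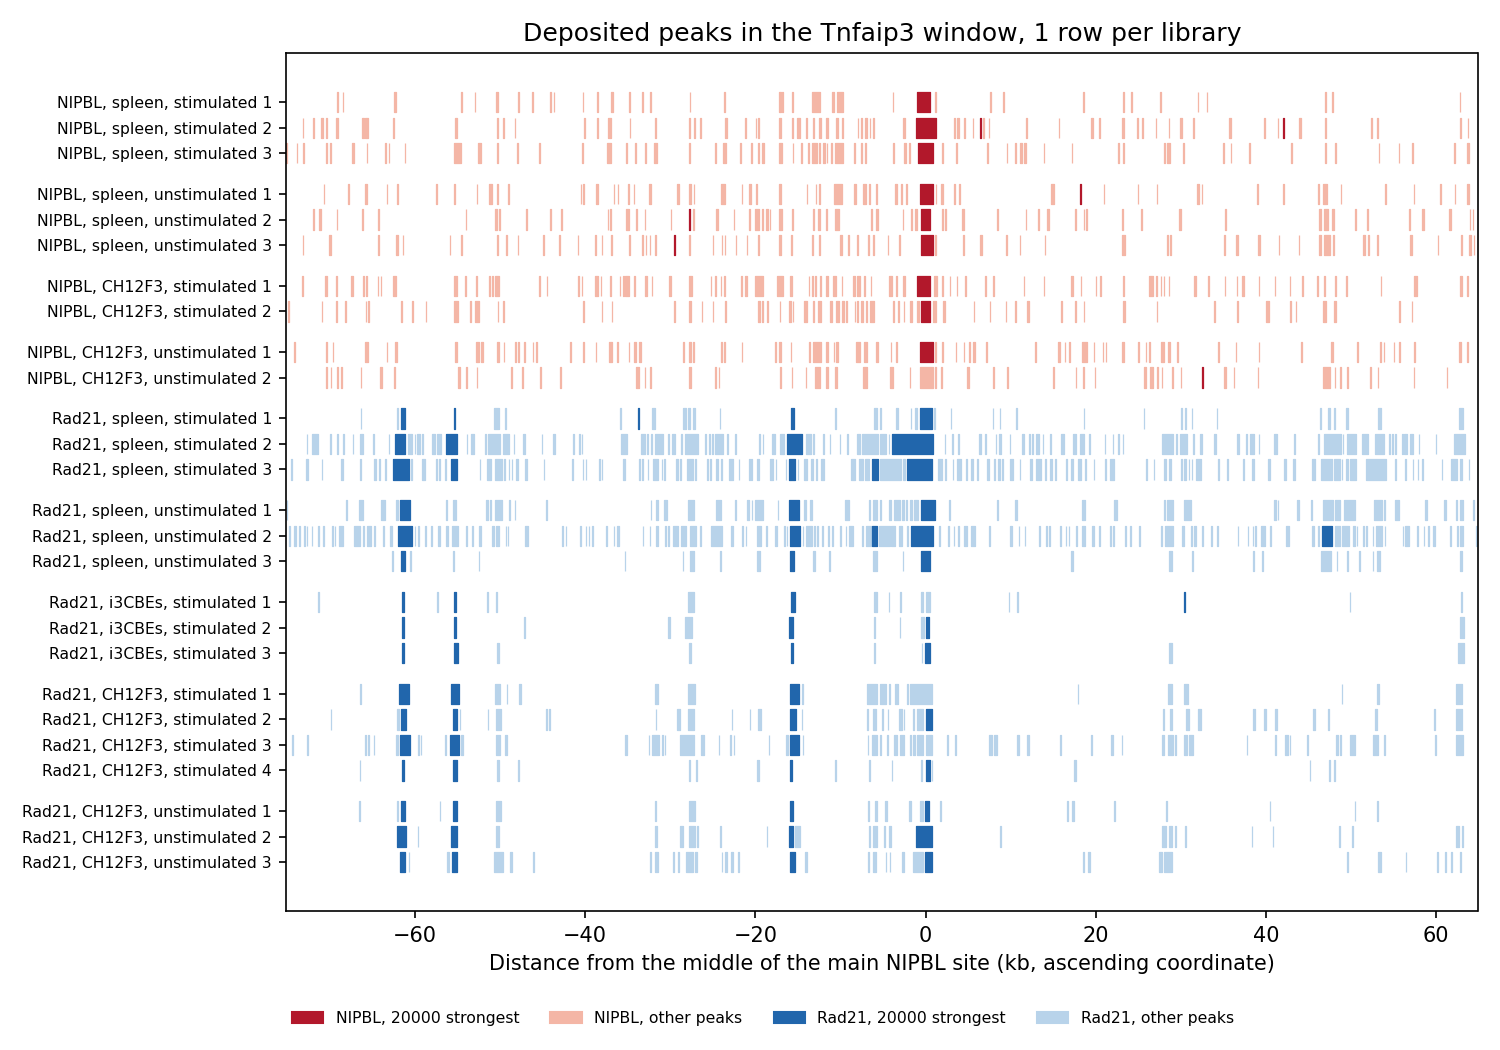
Deposited peaks in the Tnfaip3 window, 1 row per library, against the distance in kb from the midpoint of the main NIPBL site. Dark bars are top peaks and pale bars all other peaks (red for NIPBL, blue for Rad21). Both antibodies have top peaks at 0 kb, and Rad21 has further columns at -61.42, -55.33 and -15.64 kb, of which the middle one is pale in the 3 unstimulated splenic rows.

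**Figure D3:**
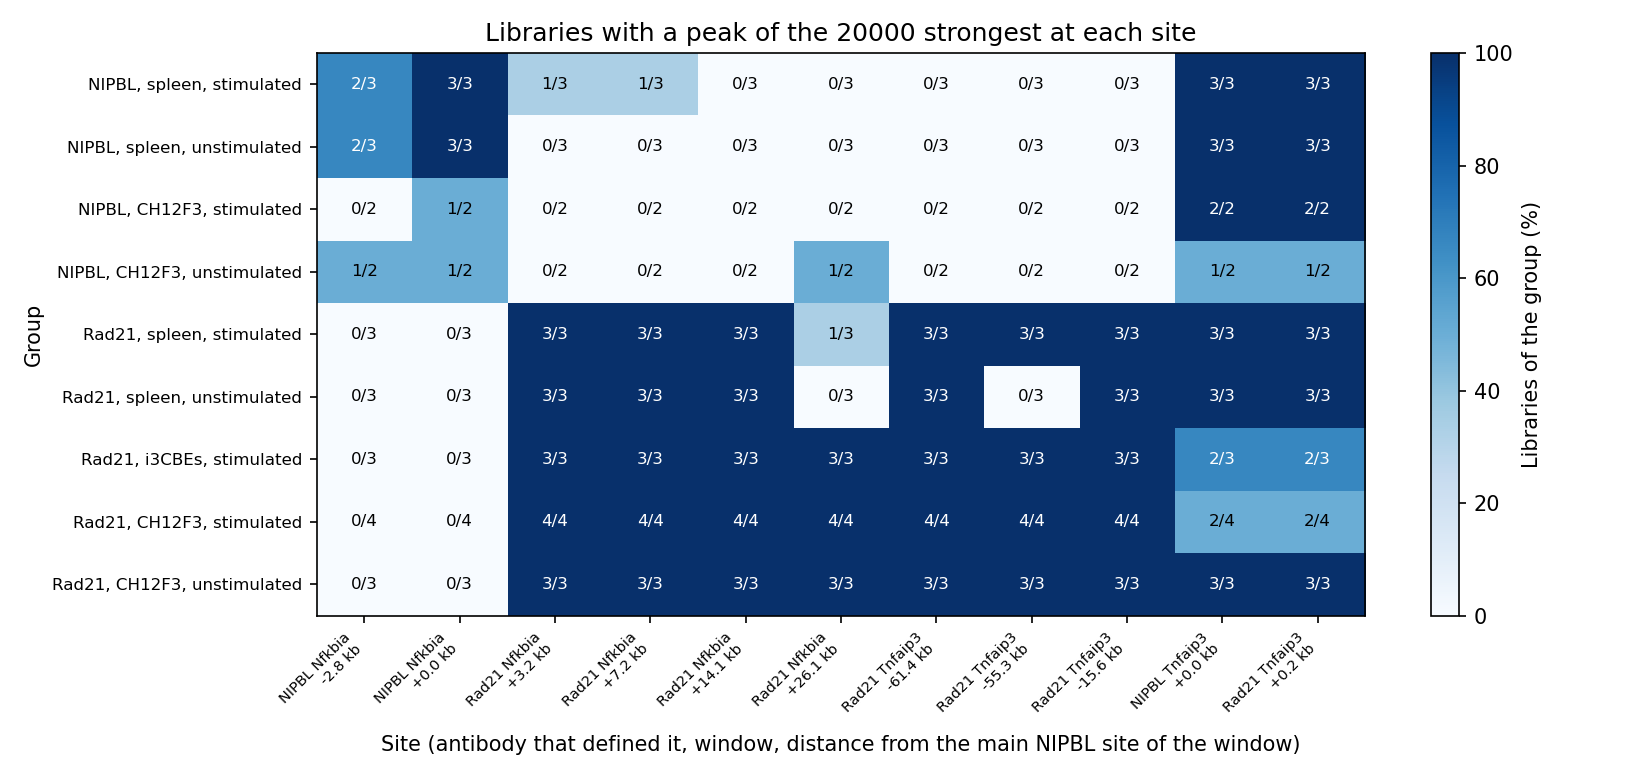
Number of libraries of each group (rows) with a top peak at each of the 11 sites (columns, named by antibody, window and distance in kb from the main NIPBL site). Shading is the percent of the group's libraries. Columns of Rad21 sites are full in every Rad21 group except at 26.1 kb for Nfkbia and at -55.3 and 0.2 kb for Tnfaip3, and both splenic NIPBL groups fill those of the main NIPBL sites.

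For tests, each window was divided into 10 kb bins, 9 for Nfkbia and 14 for Tnfaip3, of which 18 of 23 held a top peak in some library. Each bin covered in 2 or more libraries of a comparison was tested with limma together with all such bins of the genome. Differences are percentage points, and calls need a Benjamini-Hochberg adjusted p under 0.05 over all bins tested.

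Stimulation with anti-CD40 and IL-4 moved no bin of either window past the test in spleen. For NIPBL, 0 of 4 tested bins were called by limma and 0 had an unadjusted p under 0.05, beside 2.99% of all bins called. In 0 of the 4 did the groups not overlap, beside 15.1% of all bins. The bin of the broad Nfkbia site, chr12:56590001-56600000, was covered by 22.8%, 34.0% and 20.5% in stimulated and 25.1%, 20.1% and 22.2% in unstimulated spleen. These groups overlapped and differed by 3.32 (SE 3.79, limma adjusted p = 0.744). The bin of the main NIPBL site at Tnfaip3, chr10:18730001-18740000, was covered by 15.1%, 23.9% and 18.4% in stimulated and by 15.7%, 11.3% and 14.2% in unstimulated spleen. The difference there was 5.37 (SE 2.61, limma adjusted p = 0.426), with 2 of the 3 stimulated libraries above every unstimulated one. Fold enrichments went the other way, which was not tested. At the broad Nfkbia site they were 7.85 to 11.68 in stimulated and 17.13 to 19.37 in unstimulated spleen, with overlapping ranks. At the main Tnfaip3 site they were 7.82 to 11.96 and 21.09 to 30.45, in the same order. Ranks there were 2292 to 4953 and 384 to 971. Whether other sites shifted likewise was not examined. At chr12:56580001-56590000 NIPBL covered 0%, 3.15% and 2.46% in stimulated and 0% in all unstimulated libraries, and among the alternatives run this bin was called without stimulated replicate 1 only (difference 2.81, limma adjusted p = 0.0266, against 0.42 with it).

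For Rad21 in spleen, 0 of 7 tested bins were called by limma and 0 had an unadjusted p under 0.05, beside 2.82% of all bins called. The groups overlapped in all 7, beside 16.8% of all bins in which they did not. The largest difference was at the Tnfaip3 site that NIPBL shared. The bin chr10:18730001-18740000 was covered by 15.0%, 49.0% and 29.4% in stimulated and 16.5%, 25.9% and 10.8% in unstimulated spleen. Stimulated replicate 2 was the highest and replicate 1 within the unstimulated range. The difference was 13.4 (SE 10.3, limma adjusted p = 0.581), and 4.48 without stimulated replicate 2 (adjusted p = 0.822). Fold enrichments at the shared site went the other way, at 6.2 to 8.19 stimulated and 8.67 to 13.08 unstimulated. Ranks overlapped, at 9158 to 16628 and 5249 to 10500. At the Tnfaip3 site farthest from the NIPBL site, ranks were 4620 to 8529 stimulated and 2269 to 3207 unstimulated. Ranks went the opposite way, lower in number when stimulated, at the -55.33 kb Tnfaip3 site and the farthest Nfkbia site. Ranks at the other Rad21 sites overlapped. None of this was tested.

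In CH12F3, stimulation with anti-CD40, IL-4 and TGF-β gave no call either. For NIPBL, 0 of 3 tested bins were called by limma and 0 had an unadjusted p under 0.05, beside 0% of all bins called. None of the 3 had groups that did not overlap, beside 29.1% of all bins. With 2 libraries a group that differed from each other, the spread was wide. The bin chr12:56590001-56600000 was covered by 28.9% and 0% in stimulated and by 17.7% and 0% in unstimulated cells, and chr10:18730001-18740000 by 15.8% and 10.7% in stimulated and 14.4% and 0% in unstimulated cells. Both zeros at Nfkbia, and the one at Tnfaip3, were in replicate 2, whose peaks at these sites lay outside the top. At Nfkbia they were 2264 bp wide at rank 22535 stimulated and 1499 bp at rank 23326 unstimulated. At Tnfaip3 the unstimulated peak was 1533 bp wide at rank 70157. All deposited peaks of replicate 2 covered 38.87% of the Nfkbia bin stimulated and 38.97% unstimulated. Top peaks of replicate 2 had median widths of 51 bp stimulated and 129 bp unstimulated, against 68 and 664 bp in replicate 1.

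For Rad21 in CH12F3, 0 of 8 tested bins were called by limma and 1 had an unadjusted p under 0.05, beside 0.0262% of all bins called. Groups overlapped in all 8, beside 3.01% of all bins in which they did not. The 1 was again the bin of the shared Tnfaip3 site, chr10:18730001-18740000. It was covered by 0%, 7.48%, 0% and 4.30% in stimulated and 4.96%, 18.7% and 7.71% in unstimulated CH12F3 cells. The lowest 2 values were stimulated and the highest 2 unstimulated, with overlap in between. These libraries were taken as paired by replicate number, which rests on their values and not on the labels. With top peaks the stimulated value was the lower in each of the 3 pairs, at 0% against 4.96%, 7.48% against 18.7% and 0% against 7.71%. Both libraries at 0% had a peak here outside the limit, at ranks 20976 and 26522. With all deposited peaks the stimulated value was the higher in replicates 1 (36.06% against 13.69%) and 3 (28.33% against 21.99%). It was the lower in replicate 2 (21.68% against 23.53%). With top peaks the difference was -7.50 (SE 3.15, limma adjusted p = 0.796), and -7.95 with the replicate block (adjusted p = 0.729). It took the opposite sign, 1.70 and 3.55, with 40000 peaks per list and with all deposited peaks. The effect of stimulation on this bin in spleen minus that in CH12F3 was 20.9 (SE 9.70, limma adjusted p = 0.339), and 12.0 without stimulated splenic replicate 2 (adjusted p = 0.481). With 20000 peaks no bin passed such a test of the difference between spleen and CH12F3, 0 of 7 for NIPBL and 0 of 8 for Rad21, with 0 unadjusted p under 0.05 in both. The background was 0.00972% for NIPBL and 4.61% for Rad21.

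**Figure D4:**
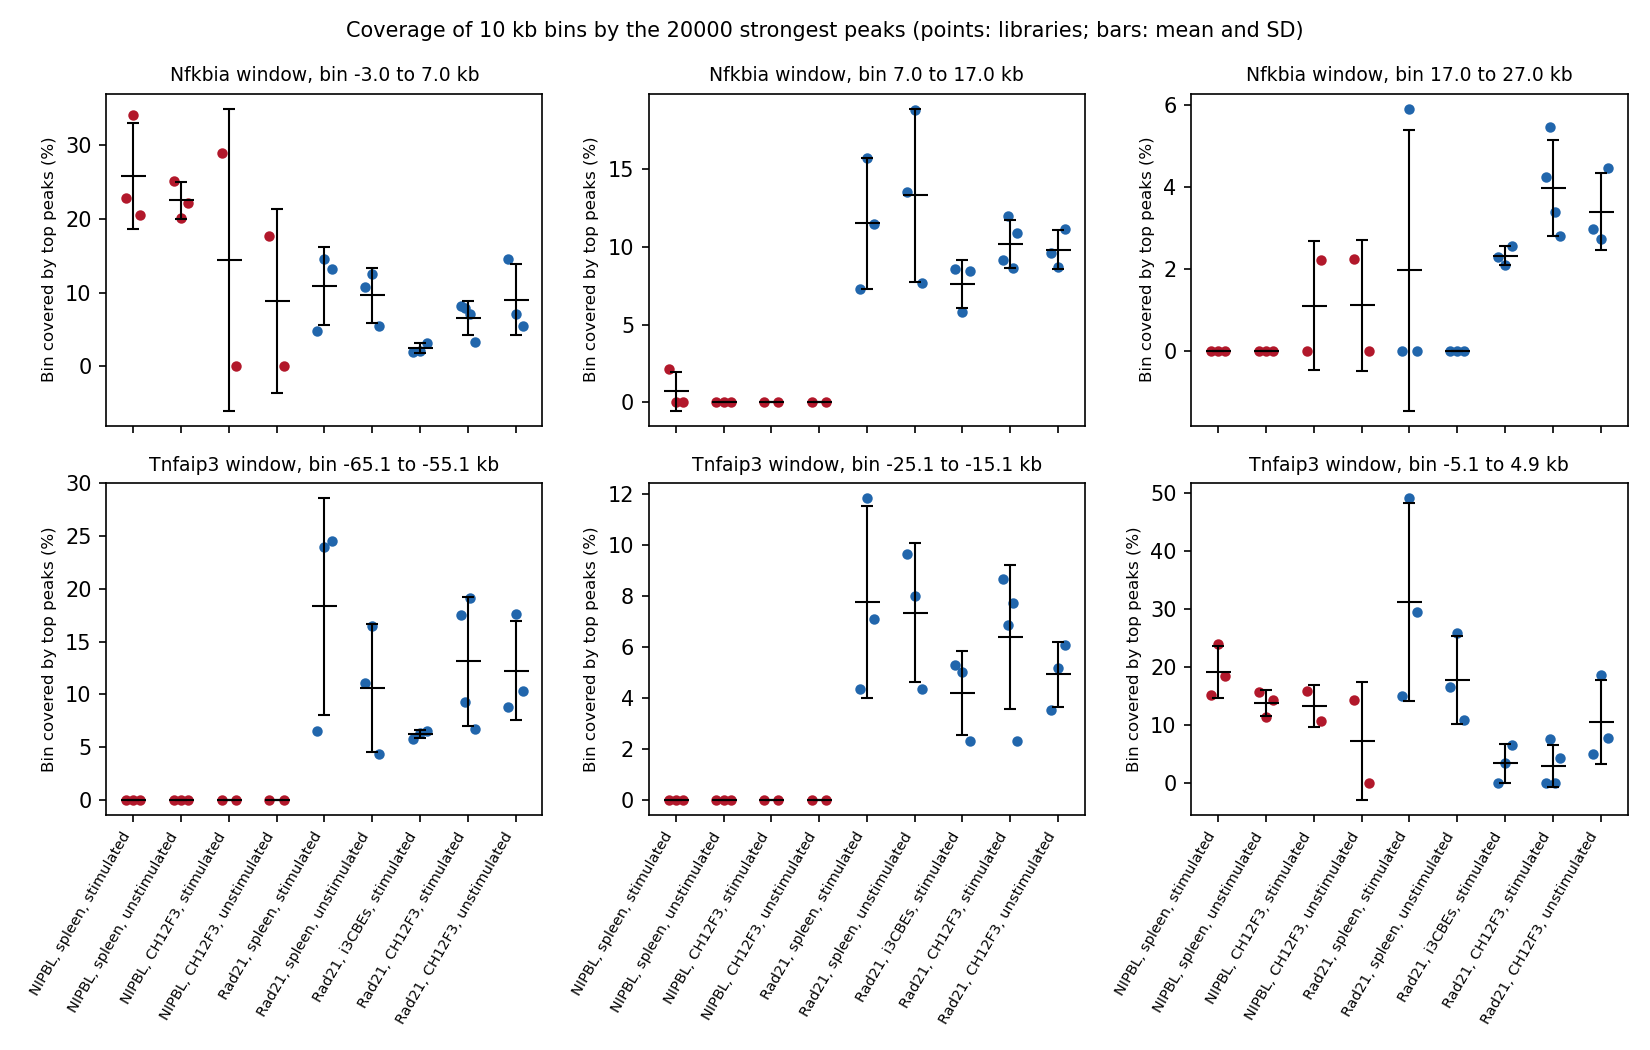
Percent of a 10 kb bin covered by top peaks in the 6 bins covered in at least 13 libraries (3 for Nfkbia above, 3 for Tnfaip3 below, named by distance in kb from the main NIPBL site). Points are libraries, horizontal bars and whiskers the mean and SD of each group (red for NIPBL, blue for Rad21). In the last Nfkbia panel the 3 unstimulated splenic Rad21 libraries are at 0% and all 10 i3CBEs and CH12F3 Rad21 libraries above it.

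Between cell types, 1 bin was called, and it was the bin of the far Rad21 site at Nfkbia. In unstimulated cells Rad21 covered chr12:56610001-56620000 by 0% in all 3 splenic libraries, against 2.99%, 2.75% and 4.48% in CH12F3. The groups did not overlap, and the difference was -3.41 (SE 0.619, limma adjusted p = 0.00931). It was the 1 of 8 tested bins called, beside 23.8% of all bins in this comparison, so that the share in the windows was no higher than in the genome. Groups did not overlap in 2 of the 8, both lower in spleen, beside 18.4% of all bins lower and 36.3% in either direction. The other of these was chr10:18680001-18690000, covered by 0% in all 3 splenic libraries, against 0.55%, 0.43% and 0.87% in CH12F3 (difference -0.617, limma adjusted p = 0.157). The call at Nfkbia held without each library in turn (-3.73 to -2.87). It was lost with 10000 peaks per list (-2.49, adjusted p = 0.145) and reversed in sign with all deposited peaks (0.423, adjusted p = 0.93). All deposited peaks covered the bin by 2.77%, 9.49% and 0.51% in unstimulated spleen, against 2.99%, 3.39% and 5.12% in unstimulated CH12F3, with replicate 2 of spleen the highest.

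In stimulated cells, Rad21 covered the same Nfkbia bin by 0%, 5.92% and 0% in spleen, against 4.25%, 5.48%, 3.39% and 2.81% in CH12F3. The single splenic value above 0% was the highest of all and belonged to replicate 2, the library that stood apart. The difference was -2.01 (SE 1.56, limma adjusted p = 0.473) with this library and -3.98 (SE 0.906, adjusted p = 0.0477) without it. With it, 0 of 8 tested bins were called by limma and 1 had an unadjusted p under 0.05, beside 6.51% of all bins called.

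That 1 bin held the Tnfaip3 site shared with NIPBL. Rad21 covered chr10:18730001-18740000 by 15.0%, 49.0% and 29.4% in stimulated spleen, against 0%, 7.48%, 0% and 4.30% in stimulated CH12F3. All splenic values lay above all CH12F3 values, which was so in 1 of the 8 bins, beside 8.64% of all bins higher and 16.2% in either direction. The CH12F3 libraries at 0%, replicates 1 and 3, had a peak at this site outside the limit, at ranks 20976 and 26522. With all deposited peaks the groups overlapped, at 22.09%, 57.73% and 64.05% in spleen and 36.06%, 21.68%, 28.33% and 7.08% in CH12F3. With top peaks, means were 31.1% ± 17.1 (SD, n = 3) in spleen and 2.95% ± 3.64 (SD, n = 4) in CH12F3. The difference of 28.2 (SE 7.11) just missed the threshold (limma adjusted p = 0.0504). It passed without splenic replicate 1 (36.3, adjusted p = 0.0174) and without replicate 2 (19.2, adjusted p = 0.0459). It was not called under the other 11 of the 13 alternatives in which the bin was tested. Over all 13 the difference ranged from 17.4 to 36.3 and the adjusted p from 0.0174 to 0.525. With 10000 peaks per list and with equal covered length, the bin was covered in fewer than 2 libraries and was not tested. In both settings only stimulated splenic replicate 1 kept the peak of this site, at rank 9158. Whether the difference holds under these stricter limits was therefore not tested. With the replicate block the difference was 28.6 (adjusted p = 0.146), and calls over the genome fell to 2, against 1498 without it. In unstimulated cells the same bin was covered by 17.7% ± 7.63 in spleen and 10.4% ± 7.25 in CH12F3 (SD, n = 3 each; difference 7.27, limma adjusted p = 0.359). Peak width enters these values, since top peaks of stimulated spleen had median widths of 309 to 646.5 bp, against 300 to 444 bp in stimulated CH12F3, and its part in the result was not tested.

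Beyond the shared Tnfaip3 site, at chr10:18780001-18790000, the deposited lists held a broad stretch of Rad21 peaks in spleen that lay mostly outside the 20000 strongest. All deposited Rad21 peaks covered 9.26%, 49.9% and 56.1% of this bin in stimulated and 43.1%, 43.1% and 18.4% in unstimulated spleen. Coverage was 0.51%, 0% and 0% in i3CBEs, 2.85%, 5.24%, 16.9% and 2.88% in stimulated CH12F3, and 2.08%, 1.02% and 3.55% in unstimulated CH12F3. In unstimulated cells spleen exceeded CH12F3 by 32.7 percentage points (SE 7.95, limma adjusted p = 0.0126, beside 1.28% of all bins called with all deposited peaks), and by 16.0 with 40000 peaks per list (adjusted p = 0.0158, beside 18.7%). In stimulated cells the difference with all deposited peaks was 31.5 (adjusted p = 0.126), and 25.7 without splenic replicate 2 (adjusted p = 0.312), a fit added after the data were seen. With 40000 peaks per list, stimulated splenic libraries were covered by 2.89%, 0% and 0%, against 21.97%, 12.3% and 14.2% in unstimulated spleen. All 3 stimulated values lay below all 3 unstimulated ones, beside 3855 of 39886 bins lower and 5785 not overlapping in either direction. This effect of stimulation in spleen was -15.2 (SE 3.24, limma adjusted p = 0.101), with 0 of all bins called. It was -14.7 without stimulated replicate 2 (adjusted p = 0.199). Also with 40000 peaks, the stimulated difference of spleen from CH12F3 was 0.0308 (adjusted p = 0.989). The effect of stimulation in spleen minus that in CH12F3 was -16.0 (SE 2.80, limma adjusted p = 0.0105, beside 2.02% of all bins called), and -15.5 without stimulated splenic replicate 2 (adjusted p = 0.0278). With all deposited peaks this difference in effect was -1.20 (adjusted p = 1). With 20000 peaks only 1 library, unstimulated splenic replicate 2, had a top peak here, so the bin was not tested. The splenic Rad21 lists held 149409 to 1236385 peaks and those of i3CBEs and CH12F3 42659 to 271662, and the part of list length in this difference was not tested.

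NIPBL in the same bin was lower in every stimulated than in every unstimulated splenic library. All deposited NIPBL peaks covered 3.28%, 2.59% and 3.17% in stimulated and 7.81%, 10.8% and 14.5% in unstimulated spleen. The groups did not overlap in 2 of the 23 window bins, this bin and chr12:56550001-56560000 at Nfkbia, which went the other way. The Nfkbia bin was covered by 13.76%, 17.85% and 24.41% in stimulated and 9.99%, 8.25% and 2.55% in unstimulated spleen. Over the genome 20770 of 255822 bins were lower and 19171 higher without overlap, and 39941 did not overlap in either direction. The difference in the Tnfaip3 bin was -8.02 (SE 2.72, limma adjusted p = 0.162), which does not pass. This bin was singled out after its values were seen.

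For NIPBL the cell types did not differ past the test. In unstimulated cells 0 of 3 tested bins were called by limma and 0 had an unadjusted p under 0.05, beside 0% of all bins called. The groups did not overlap in 1 of the 3, chr12:56590001-56600000, beside 22.2% of all bins. It was covered by 22.5% ± 2.50 (SD, n = 3) in spleen and 8.83% ± 12.5 (SD, n = 2) in CH12F3 (difference 13.6, SE 6.00, limma adjusted p = 0.563). It was called without CH12F3 replicate 1, where the difference was 22.5 (adjusted p = 0.0459), the lone remaining library being assumed to vary as the others. With all deposited peaks the direction turned (-5.00, adjusted p = 0.8). That lone library, replicate 2, covered 0% of the bin, and its list and that of stimulated replicate 2 were the NIPBL lists whose peak names give a control. The part of this in the result was not tested. In stimulated cells 0 of 4 tested bins were called by limma, 0 had an unadjusted p under 0.05 and 0 had groups that did not overlap, beside 21.6% of all bins called and 39.8% not overlapping.

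In stimulated i3CBEs cells, Rad21 covered less than in stimulated CH12F3 cells at several bins, with no call. Of 8 tested bins 0 were called by limma and 1 had an unadjusted p under 0.05, beside 0.411% of all bins called. All i3CBEs libraries lay below all CH12F3 libraries in 4 of the 8, beside 23.1% of all bins lower without overlap and 23.9% in either direction. The 3 at Nfkbia were chr12:56590001-56600000 with 2.44% ± 0.672 in i3CBEs and 6.57% ± 2.26 in CH12F3, chr12:56600001-56610000 with 7.62% ± 1.55 and 10.2% ± 1.56 in the same order, and chr12:56610001-56620000 with 2.33% ± 0.231 and 3.98% ± 1.16 (SD, n = 3 and 4). The differences were -4.13, -2.54 and -1.65, with limma adjusted p of 0.266, 0.304 and 0.243. At Tnfaip3 it was chr10:18670001-18680000, with 6.25% ± 0.391 in i3CBEs and 13.2% ± 6.10 in CH12F3 (difference -6.91, limma adjusted p = 0.257). The Rad21 sites in these 4 bins were top peaks in all libraries of both groups, and top peaks were narrower over the whole genome in i3CBEs, at median widths of 238 to 281 bp against 300 to 444 bp. The part of peak width in these differences was not tested. With lists set to an equal covered length, 1165 bins of the genome were called higher and 154 lower in i3CBEs (8.1% of those tested), against 41 and 53 with 20000 peaks. Under that setting 1 of 7 tested bins of the windows was called, chr10:18710001-18720000, which was higher in i3CBEs (difference 3.63, limma adjusted p = 0.023). The difference at chr12:56610001-56620000 turned to 0.565 (adjusted p = 0.812), and those at the other 3 bins named above stayed below 0.

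Over the whole Nfkbia window, NIPBL top peaks covered 3.47% ± 0.817 in stimulated and 2.49% ± 0.277 in unstimulated spleen, and 1.91% ± 2.26 in stimulated and 1.74% ± 2.46 in unstimulated CH12F3. Rad21 top peaks covered 2.70% ± 1.34 in stimulated and 2.55% ± 1.02 in unstimulated spleen, 1.38% ± 0.234 in i3CBEs, and 2.30% ± 0.4 in stimulated and 2.47% ± 0.488 in unstimulated CH12F3 (SD). Ordered from high to low, no neighbours in these 9 groups differed by more than the larger of their SDs. The one window in which groups did not overlap was this one for i3CBEs, at 1.43%, 1.12% and 1.58%, against 2.40%, 2.81%, 2.12% and 1.88% in stimulated CH12F3. A two-sided exact permutation test gave p = 0.0571, which is the lowest value this number of libraries can reach, and 0.72 after adjustment over the 18 window comparisons.

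Over the Tnfaip3 window, NIPBL covered 1.39% ± 0.357 in stimulated and 1.08% ± 0.152 in unstimulated spleen, and 0.949% ± 0.259 in stimulated and 0.531% ± 0.699 in unstimulated CH12F3. Rad21 covered 4.44% ± 2.36 in stimulated and 3.14% ± 1.91 in unstimulated spleen, 1.03% ± 0.181 in i3CBEs, and 1.83% ± 0.622 in stimulated and 2.02% ± 0.880 in unstimulated CH12F3 (SD). The stimulated splenic libraries were at 1.89%, 6.54% and 4.89%, with replicate 2 the highest. Stimulated exceeded unstimulated spleen by 1.30 percentage points, and by 0.248 without that library. Stimulated spleen exceeded stimulated CH12F3 by 2.61, and by 1.56 without it. Here too, no neighbours in the order differed by more than the larger SD. No exact permutation test of a window passed, with adjusted p of 0.72 to 1. The lowest p that such a test can reach is 0.1 with 3 libraries in each group, 0.2 with 3 and 2, and 0.333 with 2 in each, so no window test could pass 0.05.

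The bins most like the main bins in their pattern were found by Pearson's r over the 9 group means among 113943 bins, as a description. For chr12:56590001-56600000 they began at chr4:135700001, chr1:182650001 and chr2:105740001 (r = 0.978, 0.976 and 0.973). For chr10:18730001-18740000 they began at chr1:90170001, chr5:36800001 and chr5:113290001 (r = 0.929, 0.915 and 0.913). The r compares pattern and not level. The bin at chr5:113290001 was nearly empty, with 2.33% in stimulated splenic Rad21 as its highest group mean, against 31.1% at chr10:18730001-18740000. All 9 means share the libraries and their peak widths.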

How the data were processed

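Reads had been aligned to mm9 with Bowtie2 and peaks called with MACS2, per the submitters' processing notes; versions: not given in the sources used here. Each of the 26 libraries has its own list, so replicates were not pooled. For each peak the authors deposited a score, a fold enrichment (a ratio to the caller's background), a −log10 p-value and a −log10 q-value. These were used to rank or limit the peaks within a list, and no test compared them between lists. Groups follow the titles, since a label calls the CH12F3 and i3CBEs Rad21 samples splenic whereas the source name gives CH12F3. Peak names in the deposited lists give a control for Rad21 and for CH12F3 NIPBL replicate 2 only.

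The 20000 peaks with the highest −log10 p per list (ties by fold, then position) were kept, and the covered percent of each 10 kb bin entered limma 3.58.1 with a mean-variance trend (R 4.3.3). Bins had to be covered in at least 2 libraries of the comparison, with Benjamini-Hochberg adjusted p under 0.05. Rad21 libraries of CH12F3 and i3CBEs shared a fit. The code of the test was also run on simulated data, whose spread was not matched to these bins, and no result here rests on that run. Two-sided exact permutation tests compared the coverage of whole windows. Other software was Python 3.11.15 with scipy 1.17.1, pandas 2.3.3, numpy 2.4.6 and matplotlib 3.10.9. Alternatives were 10000 or 40000 peaks, an equal covered length (5.13 Mb), all peaks, −log10 q of 5 or more, ranking by fold, no bin filter, a replicate block and leaving out each library. Leaving out stimulated splenic Rad21 replicate 2 with 40000 or all peaks was chosen after seeing the data. Members and lists were chosen with earlier results of these data known. By rule, the text may name all bins of the windows that hold a top peak, the strongest peaks, and the 3 bins most like each main bin. NF-kB pathway genes at other loci were not analysed here, as no mm9 annotation was used.

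Same-numbered stimulated and unstimulated CH12F3 Rad21 libraries deviated together (r = 0.423, 0.651 and 0.376 over 21545 bins), so their numbers were taken to pair them. What the numbers stand for is not in the labels, and differently numbered libraries were not compared in this way. In the other comparisons r lay between -0.119 and 0.107.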

Additional observations from a re-analysis of the deposited data

How the results depend on the processing

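Coverage of a window could pass no test at these group sizes, and its small differences often changed sign. The values in percentage points were as follows. With 10000 peaks per list, stimulation of spleen gave -0.0644 for Rad21 at Nfkbia and -0.394 at Tnfaip3, and that of CH12F3 gave 0.118 for Rad21 at Tnfaip3. With 40000 peaks, stimulation at Nfkbia gave -0.0700 for Rad21 in spleen and -0.0850 for CH12F3 NIPBL, and 1.34 for Rad21 in CH12F3 at Tnfaip3. Spleen minus CH12F3 at Nfkbia was then -0.618 for unstimulated NIPBL, -0.910 for unstimulated Rad21 and -0.406 for stimulated Rad21. With equal covered length, stimulation of spleen gave -0.600 for NIPBL and -0.0644 for Rad21 at Nfkbia, -0.185 for NIPBL and -0.102 for Rad21 at Tnfaip3. There, Rad21 in CH12F3 gave 0.371 at Tnfaip3, and spleen minus CH12F3 in stimulated cells was -0.300 for NIPBL at Nfkbia, -0.153 for NIPBL and -0.0207 for Rad21 at Tnfaip3. With all deposited peaks, stimulation of CH12F3 gave 1.10 at Nfkbia and 1.68 at Tnfaip3 for Rad21. Spleen minus CH12F3 for NIPBL was then -8.94 unstimulated and -5.93 stimulated at Nfkbia, and -0.868 and -2.18 at Tnfaip3 in the same order. With −log10 q of 5 or more, stimulation gave -0.497 for Rad21 in spleen and 0.112 in CH12F3 at Nfkbia, -0.650 for NIPBL in spleen and 0.685 for Rad21 in CH12F3 at Tnfaip3. Spleen minus CH12F3 for NIPBL was then -2.30 unstimulated and -4.62 stimulated at Nfkbia, and -0.0304 and -0.871 at Tnfaip3. The cause of these changes was not tested.

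Among single bins, chr10:18730001 turned to 1.70 (40000 peaks) and 3.55 (all peaks) for Rad21 stimulation in CH12F3, chr12:56610001 to 0.565 for i3CBEs (equal length) and to 0.423 for unstimulated spleen minus CH12F3 (all peaks). For this spleen contrast chr10:18680001 turned to 1.07 (40000), 1.96 (all) and 0.0667 (−log10 q), and for NIPBL chr12:56590001 turned to -5.00 (all). The count of bins called between unstimulated spleen and CH12F3 for Rad21, 1 in the main test, was 0 with 10000 peaks, equal length or −log10 q of 5 or more, and 2 with 40000. The lost call had differences of -2.49, -2.49 and -3.41. The count was 1 instead of 0 for i3CBEs with equal length (chr10:18710001, 3.63, adjusted p = 0.023) and for the Rad21 difference in stimulation effect with 40000 peaks (chr10:18780001, -16.0, adjusted p = 0.0105).

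Without each library in turn, Nfkbia window differences of spleen minus CH12F3 ranged from -0.033 to 3.17 in stimulated and -0.987 to 2.49 in unstimulated cells for NIPBL, and from -0.259 to 1.08 in stimulated and -0.395 to 0.615 in unstimulated cells for Rad21. Those of stimulation ranged from -1.58 to 1.91 for NIPBL in CH12F3, and for Rad21 from -0.376 to 0.0978 in CH12F3 and -0.503 to 0.832 in spleen. At Tnfaip3 they ranged from -0.0757 to 0.913 for NIPBL and -0.561 to 0.296 for Rad21 stimulation in CH12F3. Bins called ranged from 0 to 1 for NIPBL stimulation in spleen, its difference between spleen and CH12F3 (chr12:56560001, called without unstimulated CH12F3 replicate 2) and NIPBL of unstimulated spleen against CH12F3. For Rad21 of spleen against CH12F3 they ranged from 0 to 2 in stimulated and from 1 to 2 in unstimulated cells. Where 1 library of a CH12F3 NIPBL group remained, it was assumed to vary as the other groups do.

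The replicate block left the count of called bins in both windows at 0 in 5 comparisons and at 1 in unstimulated Rad21 of spleen against CH12F3 (adjusted p = 0.0328). Over the genome it moved calls to 0, against 548 without it, for NIPBL and to 939, against 637, for Rad21 stimulation in spleen, to 0 against 6 for Rad21 in CH12F3, to 7 against 94 for i3CBEs, and to 5418 against 5754 unstimulated and 2 against 1498 stimulated for Rad21 between cell types.

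Depth is unknown, peak width enters coverage, and with 2 to 4 libraries a group a difference that was not called is not shown to be absent.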
